A study of Mus musculus with 6 samples.

Results

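The locus of the long noncoding RNA Tug1 and of its neighbour Morc2a was examined in chromatin recovered with probes against Tug1 from cultured mouse podocytes, the epithelial cells whose foot processes cover the filter of the kidney glomerulus. Peaks were taken wherever they overlapped Tug1, Morc2a or 50 kb to either side, a window of chromosome 11 from 3589785 to 3740477 on mm10 (150693 bp), in the peak list of each pulldown. The window held 17 of the 130269 peaks, 6 and 3 in even replicates 1 and 2 and 5 and 3 in odd replicates 1 and 2. The assay was ChIRP-seq, in which biotinylated oligonucleotides complementary to an RNA pull it out of a nuclear extract with the chromatin crosslinked to it, and the DNA is sequenced. The 48 probes along Tug1 alternated between an even and an odd set, each used for 2 pulldowns, and 2 libraries of input DNA accompanied them. All groups came from the same kind of cell, podocytes immortalized with a temperature-sensitive SV40 T antigen, grown at 33 degrees, differentiated at 37 degrees for 10 days and used at passage 10 to 12, with glutaraldehyde as crosslinker. No drug or genotype distinguished the groups, and the labels do not state that replicates came from separate cultures, so their spread may be technical only.

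Tug1, first described as taurine upregulated gene 1 in the developing mouse retina, is a broadly expressed lncRNA found in both nucleus and cytoplasm. Morc2a codes for the mouse counterpart of human MORC2, an ATPase of the MORC family of chromatin proteins that acts with the HUSH complex, a silencer of transposable elements and newly integrated DNA. In ChIRP, peaks at the gene of the probed RNA are the customary positive control, because nascent transcripts lie on their own template. The same probes match the DNA of the gene, and in these libraries recovery through the RNA and direct pairing with the DNA cannot be told apart.

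Tug1 (gene ID 544752, 9030 bp) lies at positions 3639785 to 3648814 of chromosome 11, and Morc2a (gene ID 74522, 41289 bp) at 3649189 to 3690477, with 374 bp between the spans. RefSeq promoter windows on GRCm38.p6, the assembly of mm10, place Tug1 on the minus strand with its start at 3648814. They place Morc2a on the plus strand with its first start at 3649437, so the genes run head to head from starts 623 bp apart. The span of Morc2a given above begins upstream of that start, at 3649189. A second start of Morc2a is given at 3658672. The windows of both facing starts, 250 bases before and 50 after each, are printed because they lie between the peaks of Tug1 and those of Morc2a. Each runs 5′ to 3′ on the gene's own strand, and capitals mark matches to GCCATNTT, a core of the YY1 motif, and to the GC box GGGCGG, searched on both strands.
Tug1, chr11:3648765-3649064, minus strand: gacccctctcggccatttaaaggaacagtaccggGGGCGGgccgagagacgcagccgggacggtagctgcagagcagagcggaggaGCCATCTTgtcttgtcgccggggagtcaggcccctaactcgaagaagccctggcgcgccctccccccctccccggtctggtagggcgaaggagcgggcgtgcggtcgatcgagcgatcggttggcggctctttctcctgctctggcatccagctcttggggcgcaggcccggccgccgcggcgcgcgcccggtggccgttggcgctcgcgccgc
Morc2a, chr11:3649187-3649486, plus strand: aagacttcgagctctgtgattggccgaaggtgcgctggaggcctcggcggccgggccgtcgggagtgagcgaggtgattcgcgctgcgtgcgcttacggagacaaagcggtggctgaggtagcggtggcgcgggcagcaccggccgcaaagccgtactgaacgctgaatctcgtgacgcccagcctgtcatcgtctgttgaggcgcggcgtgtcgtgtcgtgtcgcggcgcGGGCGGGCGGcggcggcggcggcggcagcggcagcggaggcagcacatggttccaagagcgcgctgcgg

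Neither window was touched by a peak in any of the 4 libraries. That is the usual state of a promoter window in these lists, since peaks of at least 1 library overlapped 4.46% of 32851 such windows and peaks of all 4 overlapped 0.0426%. The windows of Tug1 and Morc2a are rich in CG pairs, with 37 and 46 against a median of 7, and among the 1834 windows with at least as many as Tug1, 3.44% were overlapped. The capitals are 1 match to GCCATNTT and 1 to GGGCGG in Tug1 and 2 overlapping matches to GGGCGG in Morc2a. At least 1 match to GCCATNTT was found in 6.05% of all windows and to GGGCGG in 35.7%. A match is a description of letters and not a binding site. Of further motifs searched, TATAAA was in neither window (13.6% of all windows) and CCAAT was in that of Morc2a alone (37.4%).

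Inside Tug1, the peaks of all 4 libraries fell into the same 3 regions, and the 5′ end of the gene was bare in each of them. Counted from the annotated start, the 5′ region reached from 1592 to 2459 bp, the middle region from 3108 to 4306 bp and the 3′ region from 5536 to 8882 bp, when the peaks of all libraries are merged. On the chromosome they are at 3646355 to 3647222, 3644508 to 3645706 and 3639932 to 3643278. Because the gene is on the minus strand, the widest region lies at the 3′ end of the transcript. The exon structure of Tug1 and the positions of single probes were not used here.

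**Figure D1:**
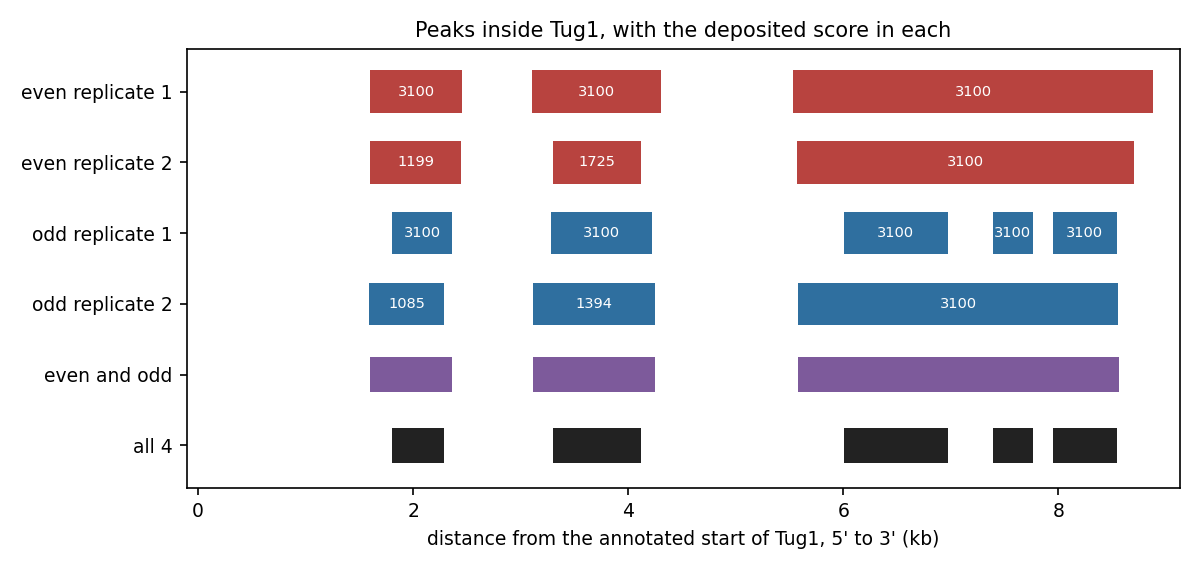
Peaks inside Tug1 in each pulldown, with distance from the annotated start in kb on the x axis and 1 row per library (even red, odd blue), the deposited score written in each peak, and below them the stretches covered by at least 1 even and 1 odd library and by all 4. The first 1592 bp hold no peak in any row, and odd replicate 1 breaks the 3′ region into 3 peaks.

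The 5′ region was a single peak in each library. It ran from 3646355 to 3647218 (864 bp) in even replicate 1 and from 3646369 to 3647210 (842 bp) in even replicate 2. It ran from 3646453 to 3647007 (555 bp) in odd replicate 1 and from 3646523 to 3647222 (700 bp) in odd replicate 2. Both even peaks were thus wider than both odd ones, by 225.5 bp on average (853 ± 15.6 against 627.5 ± 103 bp, SD, n = 2 each), which an exact two-sided permutation test over 4 libraries cannot call (p = 0.333, the smallest it can give).

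The middle region was also a single peak in each library, and here the probe sets overlapped. It spanned 3644508 to 3645706 (1199 bp) in even replicate 1 and 3644696 to 3645516 (821 bp) in even replicate 2. It spanned 3644591 to 3645529 (939 bp) in odd replicate 1 and 3644568 to 3645703 (1136 bp) in odd replicate 2. The difference between probe sets, -27.5 bp on average, was smaller than the spread within the even set (1010 ± 267 against 1037.5 ± 139 bp, SD, n = 2 each; exact two-sided permutation p = 1).

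The 3′ region was the widest in every library and the only one that any library split. It was 1 peak of 3347 bp (3639932 to 3643278) in even replicate 1 and 1 of 3131 bp (3640113 to 3643243) in even replicate 2. In odd replicate 1 it was 3 peaks, 3640271 to 3640865 (595 bp), 3641051 to 3641424 (374 bp) and 3641842 to 3642810 (969 bp), which together cover 1938 bp. In odd replicate 2 it was 1 peak of 2982 bp (3640254 to 3643235). Both even libraries therefore covered more of this region than both odd ones, 3239 ± 153 against 2460 ± 738 bp (SD, n = 2 each; exact two-sided permutation p = 0.333, the smallest possible), and most of the gap came from odd replicate 1. Among the 748 regions found in all 4 libraries, 1.74% held at least 3 peaks of odd replicate 1, whose list had a median width of 247 bp against 399, 404 and 407 bp in even replicates 1 and 2 and odd replicate 2. The part of that narrower calling in the split was not tested.

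**Figure D2:**
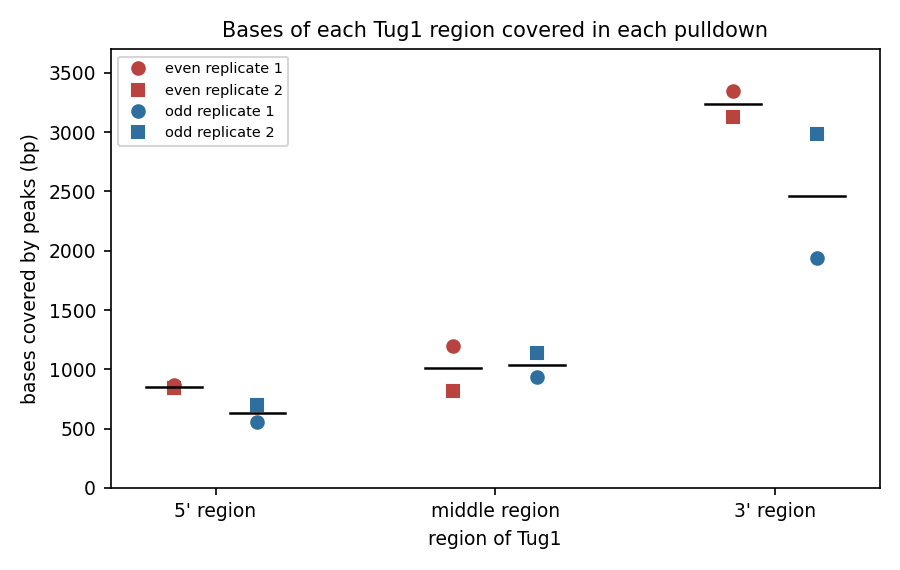
Bases of each Tug1 region covered by peaks, with the region on the x axis and bp on the y axis, 1 point per pulldown (circles replicate 1, squares replicate 2, even red, odd blue) and bars at the mean of 2. The even points lie above the odd ones in the 5′ and 3′ regions and overlap them in the middle region.

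Of the 6 outer edges of the 3 regions, 3 lay farther out in both even libraries than in both odd libraries, none the other way round, and 3 overlapped. The 3 were both edges of the 3′ region and the edge of the 5′ region that faces the middle region. Among all 1496 edges of regions in all 4 libraries, 16.4% lay farther out in both even libraries and 15.2% in both odd ones. At the edge of the 3′ region nearer the gene start the margin was 8 bp, between 3643243 in even replicate 2 and 3643235 in odd replicate 2. With 2 libraries a side, no edge can pass a test of its own, and edges within 1 gene are not independent. Covered length was higher in both even libraries at 2 of the 3 regions, as at 17.9% of the 748.

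The gaps between peaks inside Tug1 recurred in each library. Between the 3′ and middle regions, 1229 and 1452 bp were bare in even replicates 1 and 2 and 1780 and 1332 bp in odd replicates 1 and 2. Between the middle and 5′ regions, 648 and 852 bp were bare in even and 923 and 819 bp in odd replicates. From the 5′ region to the gene start, 1596 and 1604 bp were bare in the even and 1807 and 1592 bp in the odd replicates. The lengths of each of these 3 gaps overlapped between the probe sets. At the 3′ end of the gene, the bare stretch was 147 and 328 bp in the even and 486 and 469 bp in the odd replicates, shorter in both even ones. Odd replicate 1 had 2 further gaps inside the 3′ region, of 185 and 417 bp. Common to all 4 libraries were bare stretches of 1592 bp at the 5′ end, 648 bp, 1229 bp and 147 bp, in all 3616 bp or 40.0% of the gene.

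Even and odd probes recovered almost the same stretches. At least 1 even and 1 odd library covered 4884 bp of Tug1, or 54.1% of the gene, in 3 stretches, 3640254 to 3643235 (2982 bp), 3644568 to 3645703 (1136 bp) and 3646453 to 3647218 (766 bp). All 4 libraries covered 3244 bp (35.9%) in 5 stretches, 3640271 to 3640865 (595 bp), 3641051 to 3641424 (374 bp), 3641842 to 3642810 (969 bp), 3644696 to 3645516 (821 bp) and 3646523 to 3647007 (485 bp). The first 3 of these are the peaks of odd replicate 1, which set the strictest count. Bases seen with even probes alone came to 526 bp in 5 stretches, 322 bp of them at the 3′ end of the 3′ region. Bases seen with odd probes alone came to 4 bp, at the 5′ limit of the 5′ region. Exactly 3 libraries covered 1435 bp, exactly 2 covered 438 bp and exactly 1 covered 297 bp.

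Taken pair by pair, every pair of libraries shared a larger part of its covered bases in Tug1 than over the whole lists, with the lowest shares in Tug1 being those covered by odd replicate 1. All of the bases that even replicate 2 covered in Tug1 were also covered by even replicate 1, and 88.6% the other way. Of the bases of odd replicate 1, 98.0% were covered by odd replicate 2, and 69.8% the other way. Between probe sets, 63.4% of the bases of even replicate 1 were covered by odd replicate 1, and 100% the other way. For the replicate 2 pulldowns these shares were 93.7% of even and 93.2% of odd bases. Even replicate 1 and odd replicate 2 shared 89.0% of even and 99.9% of odd bases, and even replicate 2 and odd replicate 1 shared 69.1% of even and 96.6% of odd bases. Over the whole lists, the pair with the same number shared 7.93% of even and 16.3% of odd covered bases for replicate 1, and 6.53% and 4.90% for replicate 2. Across numbers, even replicate 1 shared 9.91% of its bases with odd replicate 2, whose share was 10.8%, and even replicate 2 shared 5.01% with odd replicate 1, whose share was 7.12%. Within the even set, 11.2% of replicate 1 and 16.2% of replicate 2 were shared, and within the odd set 14.1% of replicate 1 and 7.43% of replicate 2. These shares describe the lists, and a longer list covers more of any other by its length alone. High sharing was not particular to Tug1. The genes Rn18s-rs5 and Gm40237 were covered to 100% in all 4 libraries, so every pair shared all of their bases.

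The share of Tug1 covered by peaks was 59.9% and 53.1% in even replicates 1 and 2 and 38.0% and 53.4% in odd replicates 1 and 2. The values overlap, since even replicate 2 lies just below odd replicate 2 (mean 56.5 ± 4.82 against 45.7 ± 10.9%, SD, n = 2 each; even minus odd 10.8 percentage points, exact two-sided permutation p = 0.667, where 0.333 is the smallest possible). The difference was 21.9 points between the replicate 1 pulldowns and -0.266 points between the replicate 2 pulldowns. Peaks in Tug1 numbered 3 and 3 in even and 5 and 3 in odd libraries (even minus odd -1, exact two-sided permutation p = 1). Every split of these values gives a difference of 1 in size, so this p could take no other value and decides nothing.

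The score of a peak is the authors' and its scale is not stated; many peaks share a value of 3100, so that it orders peaks poorly in the replicate 1 lists. In even replicate 1 all 3 peaks of Tug1 scored 3100, tied from rank 789 to rank 32783 of 40725. In odd replicate 1 all 5 scored 3100, tied from rank 1 to rank 28026 of 28047. In the replicate 2 lists the tie was small and the score separated the regions. The 3′ region scored 3100 in even replicate 2 (tied from rank 3 to 19 of 26529) and 3100 in odd replicate 2 (tied from rank 5 to 39 of 34968). The middle region scored 1725 in even replicate 2, rank 60, and 1394 in odd replicate 2, rank 160. The 5′ region scored 1199 in even replicate 2, rank 161, and 1085 in odd replicate 2, rank 301. In both lists the score thus fell in the order 3′, middle and 5′ region, which is also the order of their covered lengths in 3 of the 4 libraries, the exception being even replicate 2, where the 5′ region (842 bp) was wider than the middle one (821 bp).

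Width ranked the 3′ region even more sharply. With 3347 bp it was the fifth widest of 40725 peaks in even replicate 1, with 3131 bp the fifth widest of 26529 in even replicate 2 and with 2982 bp rank 16 of 34968 in odd replicate 2. In odd replicate 1 its 3 pieces had ranks 74 (969 bp), 354 (595 bp) and 3276 (374 bp) of 28047. Peaks over 2000 bp were rare, with 21 and 13 in even replicates 1 and 2 and 15 and 32 in odd replicates 1 and 2. The middle region had width ranks 48 and 276 in even replicates 1 and 2 and 83 and 115 in odd replicates 1 and 2. The 5′ region had ranks 216 and 243 in even and 599 and 838 in odd replicates. In every library, each peak of Tug1 was wider than the list's median.

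**Figure D3:**
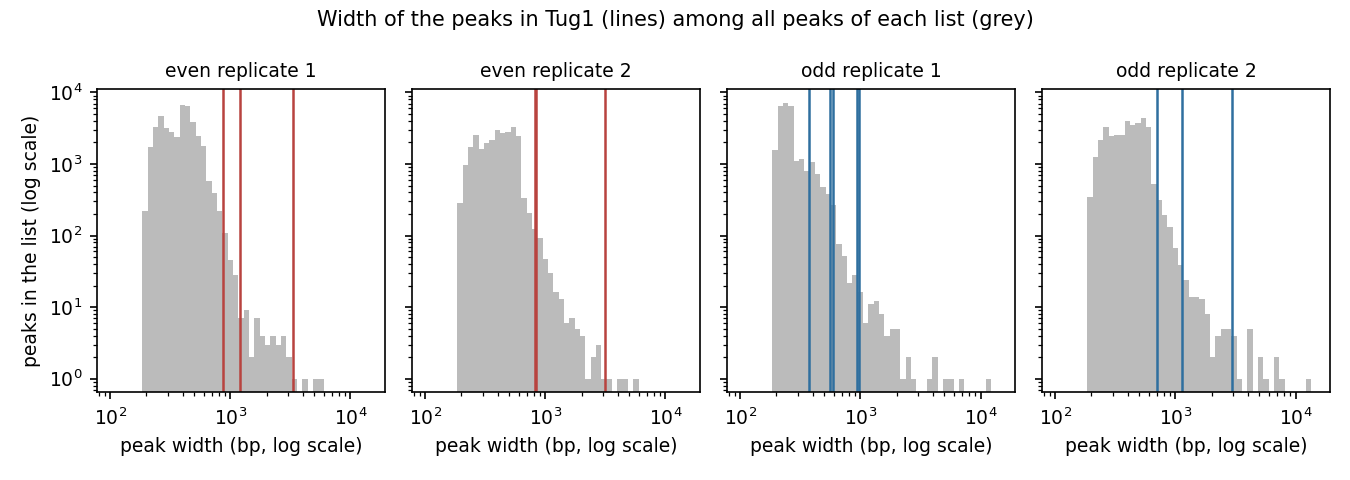
Width of the peaks in Tug1 (vertical lines) against the widths of all peaks in each list (grey histogram), with width in bp on a log x axis and the number of peaks on a log y axis, 1 panel per pulldown. In even replicates 1 and 2 and odd replicate 2 the line farthest to the right, the 3′ region at 3347, 3131 and 2982 bp, stands beyond the bulk of the list.

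Set against all 748 regions found in all 4 libraries, which are 0.661% of the merged regions and have a median merged width of 540.5 bp, the 3′ region of Tug1 ranked as number 15 by merged width, the middle region as 72 and the 5′ region as 131. Of the 15 widest, 7 lay on chromosome 8 among genes for 5S ribosomal RNA and 5 in a stretch of chromosome 6 that includes the 4.5S RNA gene Rn4.5s. The others held Rn18s-rs5, related to 18S ribosomal RNA, on chromosome 17 and Gm10222 with Gm10925 on chromosome 1. A peak over 2000 bp in each of even replicates 1 and 2 and odd replicate 2 was found in 5 of the 748 regions. These were 2 in the chromosome 6 stretch, those at Rn18s-rs5 and Gm10222, and the 3′ region of Tug1. Odd replicate 1, which split the 3′ region of Tug1, was left out of this count, so the count favours Tug1. In odd replicate 1 the widest peak was 969 bp in the 3′ region of Tug1 and 2750 and 4192 bp at Rn18s-rs5 and Gm10222. It was 1413 and 1941 bp in the 2 regions of the chromosome 6 stretch. A run of at least 3 regions of all 4 libraries within 10 kb occurred at 5 places. Tug1 held 3 regions over 7291 bp. The 2 runs among the 5S genes were longer as a whole, with 5 regions over 16947 bp and 7 over 22588 bp. The others held 3 regions each, over 5359 bp on chromosome 2 and 5813 bp on chromosome 6, both outside annotated genes.

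Among genes of 5 to 20 kb, 0.931% had peaks of all 4 libraries while 11.8% had peaks of both probe sets, and Tug1 belonged to both classes. By the share of its span covered in its lowest library, 38.0%, Tug1 ranked as number 5 of 37536 genes of at least 1000 bp and as number 2 of 26414 genes of at least 5000 bp. Only 4 genes of at least 5000 bp exceeded 10% by this measure, namely Gm52861, Tug1, Gm40365 and Gm39317. The genes most like it, the 5 with the highest lowest-library share besides Tug1, were Rn18s-rs5 and the lncRNA gene Gm40237 (both 100%, spans of 1849 and 1118 bp), Gm40369 (49.95%, 4248 bp), Gm52861 (39.9%, 8965 bp) and Gm36327 (31.1%). Gm40369, Gm52861 and Gm36327 lie together on chromosome 6, in the same stretch as Rn4.5s. In each list 8 and 13 genes (even replicates 1 and 2) and 11 and 13 genes (odd replicates 1 and 2) of at least 1000 bp were covered to a larger share than Tug1.

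**Figure D4:**
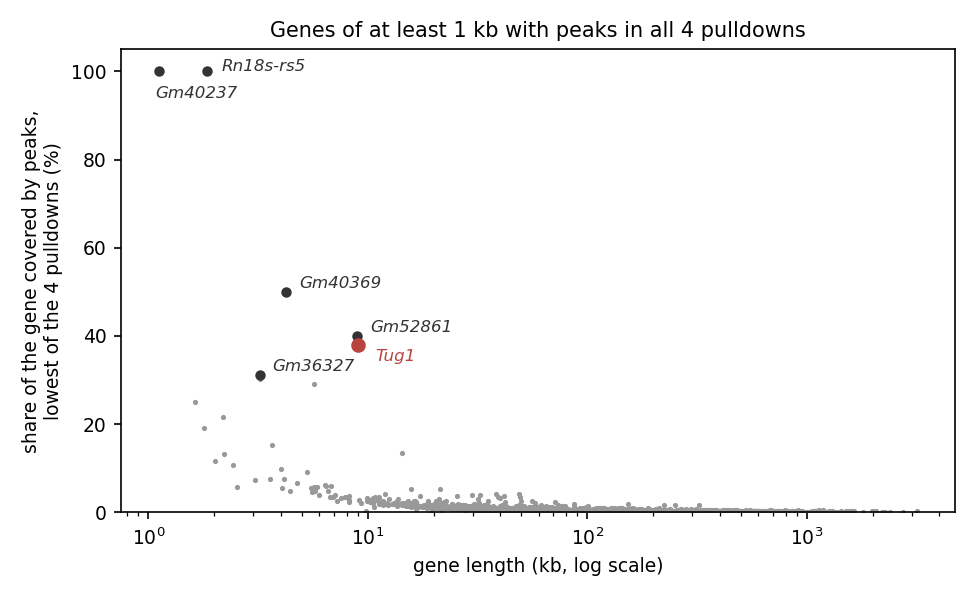
Share of each gene covered by peaks in its lowest of the 4 pulldowns, in percent on the y axis, against gene length in kb on a log x axis, for genes of at least 1 kb with peaks in all 4 pulldowns (1 point per gene). Tug1 (red) stands at 38.0%, next to Gm52861 at 39.9%, while most genes of similar length lie near the x axis.

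Morc2a, in contrast, had peaks in 1 of 4 libraries. Even replicate 1 had 2 peaks inside it, from 3675652 to 3676241 (590 bp) and from 3679621 to 3680124 (504 bp), 26215 and 30184 bp downstream of the first start of Morc2a. Both scored 3100, the value shared by most peaks of that list, and they stood at width ranks 2195 and 6122 of 40725. Even replicate 2 and both odd libraries had none in the gene. Of 6900 protein-coding genes of 20 to 80 kb, 53.0% had at least 1 peak of even replicate 1, 20.4% at least 2 and 28.5% peaks of exactly 1 library, so the count at Morc2a is near the background. In the same genes 35.3% had a peak of even replicate 2, 40.3% of odd replicate 1 and 44.9% of odd replicate 2. Morc2a had no peak of an odd library, and thus no stretch recovered with both probe sets. Of these genes, 44.9% had a peak of at least 1 even and 1 odd library, at the same place or not.

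The peaks of Tug1 did not reach into its neighbour in any list. From the last base of the 5′ region to the first peak in Morc2a, 28429 bp were free of peaks in all 4 libraries, a stretch that holds both starts of Morc2a. Above Tug1, the nearest peak was 26.8 kb away in even replicate 1 and 149 kb in even replicate 2, and 112 and 111 kb away in odd replicates 1 and 2. Below Tug1, it was 97.4 and 124 kb away in even and 154 and 86.2 kb in odd replicates. The only other peak in the window was 1 of even replicate 1 at 3697764 to 3698196 (433 bp, score 3100), which overlaps the pseudogene Gm16518, 7287 bp beyond the end of Morc2a. The 3 peaks outside Tug1 in even replicate 1 compare with 2.52 that the density of that list on chromosome 11 would give for the rest of the window. The 0 peaks of even replicate 2 and odd replicates 1 and 2 compare with 1.34, 1.70 and 1.86. The pseudogenes Gm11949 and Gm11951 and the part of Osbp2, a gene for an oxysterol-binding protein, that lies in the window had no peak.

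**Figure D5:**
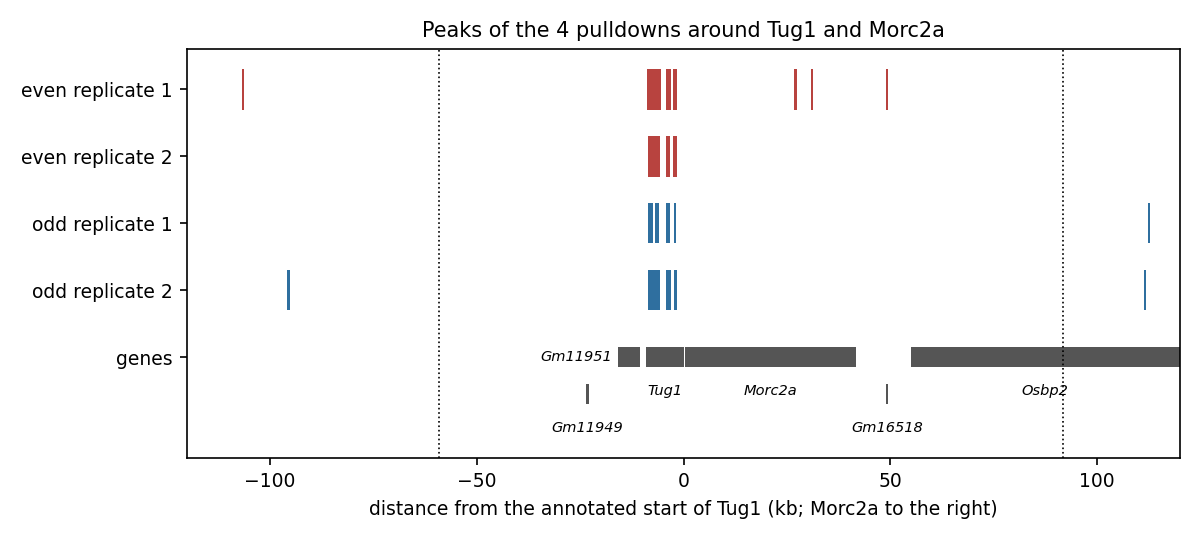
Peaks of the 4 pulldowns (even red, odd blue) around Tug1 and Morc2a, with distance from the annotated start of Tug1 in kb on the x axis, 1 row per library and genes in grey below; dotted lines bound the window of 50 kb around the 2 genes, and peaks narrower than 0.5 kb are drawn at that width. The 4 libraries coincide over Tug1, and even replicate 1 alone has peaks over Morc2a and Gm16518.

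In the other genes of the MORC family, no place was recovered by more than 1 library. Over the whole lists, even and odd libraries shared 4.90 to 16.3% of their covered bases. Most bases covered by a library were thus not covered by a given library of the other probe set. That share counts bases and not genes, so it does not say how often even and odd peaks within a gene meet. The share of all genes with even and odd peaks at the same place was not computed. Of Morc1, Morc2b, Morc3 and Morc4, 2 had a peak in any library, beside 77.6% of protein-coding genes of 10 to 200 kb, a class that holds the lengths of all 4 (median 47007.5 bp, against 30238 bp in the class). Morc1, a germline member needed for transposon silencing in the male mouse, had 3 peaks in even replicate 2 and 3 in odd replicate 1, and none of the even peaks overlapped an odd one. Morc4 had 1 peak in odd replicate 1. Morc2b and Morc3 had none. Peaks covered at most 0.596% of any of these genes.

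Of 8 genes for the HUSH complex and its partners, 6 had a peak in any library and 4 had peaks of both probe sets, beside 67.7% and 31.5% of protein-coding genes of 5 to 100 kb. The 8 genes lie in that range but are longer than most of it, with a median of 52466.5 bp against 21387 bp, and longer genes have more room for a peak. Pphln1, which codes for the HUSH subunit periphilin, had 4 and 4 peaks in even replicates 1 and 2 and 0 and 1 in odd replicates 1 and 2. Its even peaks at 93467941 to 93468377 (437 bp) and 93467805 to 93469302 (1498 bp) of chromosome 15 overlapped, while no odd peak met an even one. Setdb1, the gene of an H3K9 methyltransferase, had 1 and 0 peaks in even and 1 and 0 in odd replicates, at different places. Atf7ip, whose product is a partner of SETDB1, was the only list gene here with peaks in all 4 libraries (2 and 2 in even, 1 and 2 in odd replicates), and an even and an odd peak met over 215 bp, in the replicate 1 pulldowns. Its relative Atf7ip2 had 1 and 1 peaks in even and 1 and 0 in odd replicates, none overlapping. Tasor and Tasor2 had peaks of even libraries alone. Mphosph8, for the chromodomain subunit of HUSH, and Trim28, for a corepressor of zinc finger proteins, had none. Coverage stayed at or below 2.65% of any of the 8 genes.

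The genes of 14 other lncRNAs, most of them known from the nucleus and none targeted by the probes, were covered to a smaller share than Tug1 in every library. Of these, 10 had a peak in any library, 5 had peaks of both probe sets and 2 (Pvt1 and Dleu2) had peaks of all 4, beside 45.7%, 16.6% and 3.05% of 11296 lncRNA genes of 2 to 250 kb. The 14 genes are again longer than most of that class (median 21817 bp against 9838 bp), so these shares are not for genes of like length. Malat1, an abundant nuclear-speckle RNA from a gene of 6983 bp, had none. Neat1, the scaffold RNA of paraspeckles, had 1 peak, in odd replicate 1, and Xist, the RNA of X inactivation, 1 peak in odd replicate 2. Kcnq1ot1 had 1 peak in each replicate 2 library, and Meg3 1 in even replicate 1 and 1 in odd replicate 2, in both cases at different places. Miat had 1 and 0 peaks in even and 1 and 3 in odd replicates, with 2 odd peaks overlapping by 244 bp and no even one among them. Pvt1, at 222230 bp the longest of the list, had 13 and 3 peaks in even and 7 and 4 in odd replicates. Even replicate 1 and both odd libraries met at a single place, where the peak of odd replicate 1 ran from 62083489 to 62083779 of chromosome 15. Elsewhere in Pvt1, even replicate 1 met odd replicate 1 over 211 bp and odd replicate 2 over 121 and 383 bp. Dleu2 had 2 and 1 peaks in even and 1 and 1 in odd replicates, none overlapping. The highest share of any of the 14 genes covered in any library was 9.40%, at Miat in odd replicate 2, against 38.0% as the lowest share at Tug1. Gas5, Mirg and Snhg1 had no peak, and H19, Rian and Firre had peaks of 1 probe set alone.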

How the data were processed

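DNA pulled down from mouse podocytes with even or odd Tug1 probes was analysed in 4 libraries; the values of the 2 input libraries were not analysed here. The submitters' processing notes name Bowtie2 2.1.0 and the build mm10. What was deposited is 1 peak list per pulldown, called against 1 input library each per the file names (inputs 1 and 2 for replicates 1 and 2), without pooling. Peak names start with MACS; the version of the caller, its threshold and its treatment of duplicate reads are not given in these sources. The authors' score for each peak, as deposited, was used within a list. A series-wide list of 130269 peaks held the same peaks and was not used. Read depth is unknown, since the lists give no read numbers, and deeper libraries can yield more peaks.

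Positions are 1-based. Gene spans (49976 genes) and promoter windows (32851) came from RefSeq tables of GRCm38.p6. All 26 genes of the 3 lists were matched by symbol. A gene or region counted as recovered from 1 bp of overlap; regions are peaks merged over libraries. Even and odd libraries were compared by exact two-sided permutation over 4 libraries. Genes were named by a fixed rule: Tug1, Morc2a, genes of the window with a peak, list genes with even and odd peaks, and the 5 genes of at least 1000 bp with the highest lowest-library share; list genes named beyond it were chosen after their values were seen. The members and lists were chosen with earlier results of these data known. Alternatives were a stricter score, single libraries left out, other windows and overlap rules. Interval functions were tested on simulated data. Python 3.11.15 was used with scipy 1.17.1, pandas 2.3.3, numpy 2.4.6 and matplotlib 3.10.9.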

Additional observations from a re-analysis of the deposited data

How the results depend on the processing

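Each of the 6 results was recalculated under its alternatives, 37 values in all. Left out in turn, single libraries gave 3.15 to 18.5 percentage points for the even minus odd share of Tug1 covered and -2 to 0 for the difference in peak number. The share difference was 3.15 points and the peak difference 0 without odd replicate 1, and they were 18.5 points and -2 without odd replicate 2. They gave 3432 to 4884 bp covered by at least 1 even and 1 odd library and 3244 to 4491 bp covered by every library left, the most without odd replicate 1. Without even replicate 1, the number of libraries with a peak in Morc2a fell to 0 (0 to 1 over all libraries left out) and that of peaks outside Tug1 in the window to 0 (0 to 3). With 100 kb to each side, 7 peaks lay outside Tug1. With the pulldown number as a replicate block, the even minus odd difference was 10.8 percentage points and -1 peaks (exact sign-flip p = 1 for both). The smallest possible p was 0.5 for the share. For peak number the pair differences were -2 and 0, so no other p was possible. With 2 pairs it cannot be shown whether the numbers pair the samples. Keeping peaks at or above the median score of their list changed no value, but this tests nothing in the replicate 1 lists, where the median is 3100, the score of all their peaks in the window, those of Morc2a and Gm16518 included. Depth limits every count of missing peaks: a stretch with no peak is one where the authors' caller reported none.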
